A study of Saccharomyces cerevisiae with 10 samples.

Results

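The VPS genes of budding yeast, Saccharomyces cerevisiae, are described here over the first 10 hours after cells changed their form of growth. Members were the open reading frames of the deposited table whose symbol in the R64 gene table consists of VPS and a number. They were 42 of 6292 open reading frames, all 42 symbols of that kind in the gene table had a row, and the rule used no measured value. The filamentous-form cells were wild-type diploids that had been shifted to SLAD agar, whose low ammonium makes them grow as filaments, and they were sampled at 10 times, hours 1 to 10. The yeast-form cells were the same diploids in SHAD liquid, with plentiful glucose and ammonium. Each of 10 two-colour arrays set total RNA of 1 hour of filamentous growth against yeast-form RNA, so the groups differ in medium, in liquid or agar growth and in growth form together. The sources used here name no strain and do not say whether all arrays shared a single yeast-form extract.

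VPS stands for vacuolar protein sorting. The vacuole is the yeast counterpart of the lysosome, and the genes were found in mutants that secrete vacuolar hydrolases in place of delivering them. Their products work in sequence on the road from the Golgi through the endosome to the vacuole: ESCRT complexes sort ubiquitin-marked membrane proteins into internal vesicles of the endosome, retromer carries sorting receptors back to the Golgi, and the HOPS and CORVET complexes tether membranes before they fuse at the vacuole and the endosome. This route brings plasma membrane permeases to the vacuole for breakdown, and its lipid kinase, Vps34, also serves autophagy.

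Values are log2 ratios, written as filamentous over yeast form and centred on the median of each array, so that 0 is the middle of that array. That direction is likely, though the labels do not give it. It rests on the order of the channels and on 7 listed genes of poor nitrogen use, all 7 of which passed as higher. Among them were DAL80 at 3.03 ± 1.16, GAP1 at 1.75 ± 0.33 and the lowest, DUR1,2, at 0.63 ± 0.53 (SD over hours, n = 10). These genes were listed with earlier results of these data known, so they are no independent check. A value deposited at the zero placeholder was taken as missing, and 5775 genes with at least 8 values were tested, 40 of the 42 VPS genes among them. No hour had a second array. The limma fit therefore took as its error how far single hours lay from a smooth time course, and its p-values measure only that spread between arrays, which may be technical. Pairs of odd hours or of even hours were more alike across genes (mean Pearson's r of 0.60 over 20 pairs) than mixed pairs (0.45 over 25 pairs), with no such batch in the labels, so odd and even hours are also given apart. Genes of haploid cells, which diploids keep off, passed for 1 of 8 tested members as higher and for 3 as lower, or 12.5% and 37.5%, against 22.6% and 22.4% of all genes, and the part of haploid cells in the results was not tested.

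The VPS genes passed in both directions. The mean over the 10 hours was higher for 10 of the 40 tested genes and lower for 6 at an adjusted p under 0.05 in limma, and 24 did not pass. These are 25% and 15% of the VPS genes, against 22.6% and 22.4% of all 5775 genes tested, so that the share of higher genes lay near the background. A difference of at least 2-fold was found for 2 of the higher and 3 of the lower VPS genes, against 8.55% and 10.3% of all genes. In 3 VPS genes all measured values lay above 0 and in 2 all lay below 0, against 9.84% and 14.3% of all genes. The median of the VPS means was 0.20, and the median over all genes tested was 0.08. Single means ran from -1.61 for VPS68 to 1.04 for VPS64. On the deposited scale, without centring, the medians were 0.50 for the VPS genes and 0.37 for all genes, and 17 VPS genes were higher and 4 lower, against 38.8% and 15.3% of all genes. Higher ratios made up 81% of VPS calls and 71.7% of all calls on the deposited scale, and 62.5% of VPS calls and 50.3% of all calls on the centred one. If the ratios ran the other way, higher and lower would change places in all these counts.

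**Figure D1:**
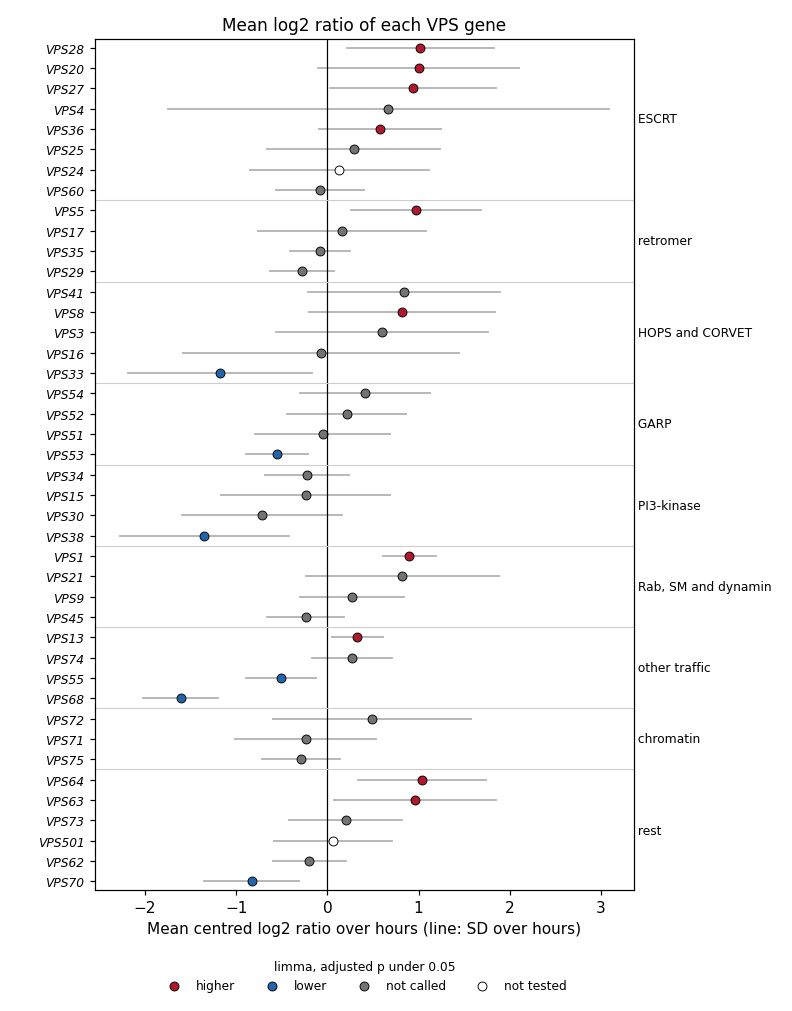
Fitted mean of the centred log2 ratio over hours for each of the 42 VPS genes (points, x axis; plain means for the 2 not tested), grouped by class down the page, with a line of 1 SD over hours to each side. Red points passed as higher, blue as lower, grey did not pass and white were not tested. The 10 red points lie between 0.33 and 1.04, and the 6 blue points between -0.51 and -1.61.

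The ESCRT genes held 4 of the 10 higher members and none of the lower ones. Of 7 tested ESCRT members 4 were higher and 0 lower, against 22.6% and 22.4% of all genes, and their median was 0.67. On the deposited scale 4 were higher and 0 lower too, where 38.8% and 15.3% of all genes were. VPS28, a subunit of ESCRT-I, was at 0.88, -0.25, 0.25, 0.57 and 0.54 in the odd hours 1, 3, 5, 7 and 9 and at 1.58, 1.31, 0.98, 2.44 and 1.93 in the even hours 2, 4, 6, 8 and 10, so that every even hour lay above every odd hour. Its mean was 1.02 ± 0.81 (SD, n = 10; adjusted p = 0.0055), a 2.03-fold difference, and 9 of 10 arrays lay above 0. VPS20, which starts the assembly of ESCRT-III, was at 1.01, 2.95, 2.58, 0.25 and -0.25 in odd hours and at 0.78, 0.19, 1.78, -0.01 and 0.73 in even hours, highest at hours 3 and 5. Its mean was 1.00 ± 1.10 (adjusted p = 0.021), a call lost without hour 5 (0.82, adjusted p = 0.052) and without hour 6 (0.91, adjusted p = 0.051).

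VPS27, the ESCRT-0 subunit that gathers ubiquitin-marked cargo, was above 0 on 10 of 10 arrays, from 0.05 to 2.86, with a median of 0.59. Its mean was 0.94 ± 0.91 (adjusted p = 0.016), with 1.51 over odd hours and 0.37 over even hours. The call was lost with even hours alone (adjusted p = 0.13) and without hours 1 and 2 (0.87, adjusted p = 0.07). VPS36, an ESCRT-II subunit, ran from -0.33 to 1.96 with a median of 0.59, and was highest at hour 1. Its mean was 0.58 ± 0.67 (adjusted p = 0.015), and without hour 1 it was 0.43 and did not pass (adjusted p = 0.071).

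The other ESCRT members did not pass. VPS25, the second VPS subunit of ESCRT-II, averaged 0.29 ± 0.95 (adjusted p = 0.45). Its value at hour 5 was -2.0, while all other hours lay between -0.21 and 1.33. Without hour 5 its mean was 0.55 and it passed (adjusted p = 0.028). VPS60, an ESCRT-III-like protein, had a mean of -0.08 ± 0.48 (adjusted p = 0.68). VPS24, an ESCRT-III subunit, had 6 values between -1.06 and 1.10 and was not tested. With a filter of at least 5 values its mean was 0.16 and it did not pass (adjusted p = 0.64).

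VPS4, the ATPase that takes ESCRT-III apart, varied most of all VPS genes. The odd hours 1, 3, 5, 7 and 9 gave 0.95, 0.32, 2.00, 6.73 and 1.04, and the even hours 2, 4, 6, 8 and 10 gave -1.29, -1.20, -1.14, -1.17 and 0.43. All odd hours were above 0 and 4 of the 5 even hours were below -1, so that the sets overlapped only through hour 10, which lay above hour 3. The mean over all hours was 0.67 ± 2.42 and did not pass (adjusted p = 0.49). Without hour 7 it was 0.00 (adjusted p = 0.99). The mean of odd hours was 2.21, or 1.08 without hour 7, and the mean of even hours was -0.87, which passed as lower with even hours alone (adjusted p = 0.026).

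Retromer has a cargo-binding part and a part of sorting nexins that shapes the membrane. Of all genes tested 45% passed in either direction, and VPS5, a sorting nexin, was the 1 retromer member of 4 that did. It was at 0.27, 1.65, 1.19, 0.12 and 1.25 in odd hours and at 1.10, 1.12, 1.10, -0.22 and 2.10 in even hours. Its mean was 0.97 ± 0.71 (adjusted p = 0.0060), above 0 on 9 of 10 arrays. Its frame overlaps that of VAM10 in the gene table, which was at -0.66 ± 0.74 (n = 8; adjusted p = 0.031), on the other side of 0. The strand of the array's probes is not stated, and the part of this overlap in the VPS5 values was not tested. VPS17, the partner nexin of Vps5, was at 0.16 ± 0.92 (adjusted p = 0.64), and the cargo-binding subunits VPS35 and VPS29 were at -0.08 ± 0.33 (adjusted p = 0.64) and -0.28 ± 0.35 (adjusted p = 0.055). VPS29 passed as lower without hour 3 (-0.31, adjusted p = 0.032) and without hour 10 (-0.34, adjusted p = 0.044). When the split into odd and even hours entered the fit as a covariate, it passed as lower at -0.28 (adjusted p = 0.049). On the deposited scale VPS29 was at 0.01 and did not pass (adjusted p = 0.93).

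The tethering complexes HOPS and CORVET share a core to which each adds its own subunits, and the VPS members of both held values on each side of 0. VPS33, the SM protein of the shared core, which guides the pairing of SNARE proteins, was at -1.72, 0.73, -0.60, -0.22 and -2.05 in odd hours and at -0.36, -1.80, -1.37, -2.35 and -2.05 in even hours, and hour 3 was the only array above 0. Its mean was -1.18 ± 1.01 (adjusted p = 0.0045), a 2.26-fold difference. Over odd hours the mean was -0.77 and did not pass (adjusted p = 0.21), and over even hours it was -1.58 (adjusted p = 0.0037). VPS8, a CORVET subunit, ran from -1.34 at hour 1 to 2.08 at hour 6 with a median of 0.99, and hour 1 was the only array below 0. Its mean was 0.82 ± 1.02 (adjusted p = 0.012).

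VPS41, a HOPS subunit, was at 0.84 ± 1.05 and did not pass (adjusted p = 0.051), but passed without hour 4 (1.05, adjusted p = 0.012). Without any 1 of the other hours it did not pass, with an adjusted p of up to 0.11. VPS3, the other CORVET subunit among the members, had 9 values. The mean of these was 0.66 ± 1.16, and the fitted mean, which allows for the missing hour, was 0.60 (adjusted p = 0.13). Its value at hour 10 was 3.49, and its other values lay between -0.50 and 0.98.

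VPS16, the other core subunit among the members, had a mean near 0 made of opposite values. The odd hours 1, 3, 5, 7 and 9 gave -1.73, -0.20, -1.41, -2.32 and -0.17, and the even hours 2, 4, 8 and 10 gave 1.01, 2.05, 1.51 and 0.58, with hour 6 missing. Every odd hour lay below 0 and every even hour above it. The means were -1.16 ± 0.95 (SD, n = 5) over odd hours and 1.29 ± 0.64 (SD, n = 4) over even hours, a difference of -2.45, and 2.79% of all genes tested had odd and even hours on opposite sides of 0 in this way. The fitted mean over all hours was -0.07 (SD of its values 1.51; adjusted p = 0.92). In the fit of even hours alone VPS16 passed as higher (adjusted p = 0.022).

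**Figure D2:**
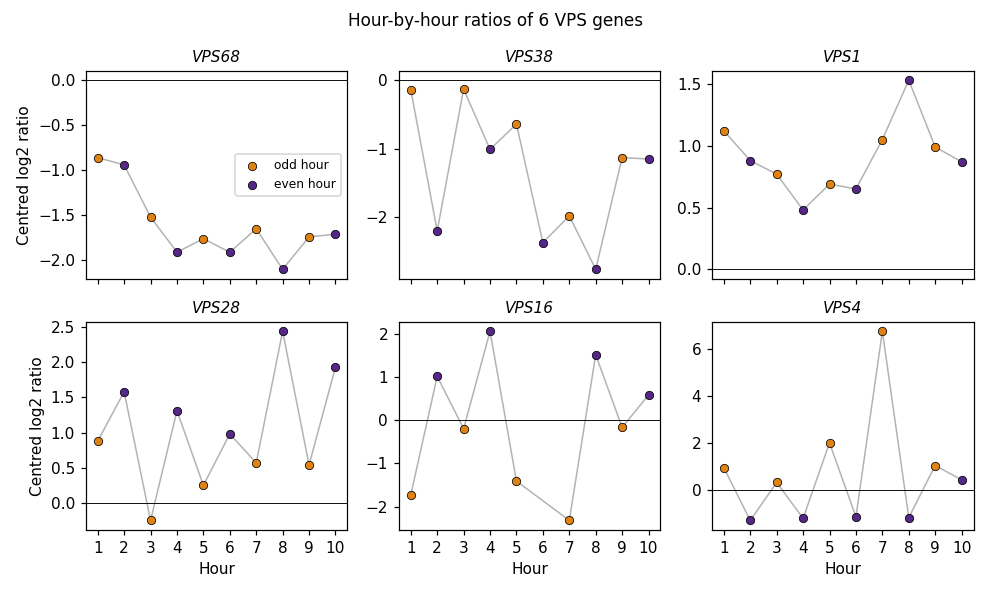
Centred log2 ratio (y axis, scales differ between panels) against hour (x axis) for 6 VPS genes, with odd hours in orange and even hours in purple. VPS68 and VPS38 lie below 0 and VPS1 above 0 at every hour, while the odd and even hours of VPS28 and VPS16 do not overlap, and VPS4 reaches 6.73 at hour 7.

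GARP tethers vesicles from endosomes at the trans-Golgi. VPS53 was its 1 member of 4 that passed, against 45% of all genes tested in either direction. It was at -0.93, -0.18, 0.10, -0.73 and -0.40 in odd hours and at -0.64, -0.60, -0.64, -1.04 and -0.47 in even hours, so that hour 5 was the only array above 0. Its mean was -0.55 ± 0.34 (adjusted p = 0.0061), and on the deposited scale it was -0.26 and did not pass (adjusted p = 0.13). VPS54, VPS52 and VPS51 had means of 0.41 ± 0.71, 0.21 ± 0.65 and -0.05 ± 0.74 and did not pass (adjusted p-values of 0.18, 0.43 and 0.86).

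The phosphatidylinositol 3-kinase Vps34 and its regulatory kinase Vps15 form separate complexes for autophagy and for endosomes, and Vps38 marks the endosomal one. VPS38 was at -0.14, -0.13, -0.64, -1.98 and -1.13 in odd hours and at -2.20, -1.01, -2.37, -2.76 and -1.15 in even hours, below 0 on all 10 arrays. Its mean was -1.35 ± 0.93 (adjusted p = 0.0020), a 2.55-fold difference. Its frame overlaps that of DCR2, which was lower as well, at -1.87 ± 0.58 (n = 10; adjusted p = 1.5e-05), and the part of this overlap in the VPS38 values was not tested. VPS34 and VPS15 were at -0.22 ± 0.46 (adjusted p = 0.28) and -0.24 ± 0.93 (adjusted p = 0.37) and did not pass.

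VPS30, which belongs to both kinase complexes, had 8 values. The odd hours 1, 3 and 9 gave 0.77, 0.67 and -0.49, and the even hours 2, 4, 6, 8 and 10 gave -1.0, -1.56, -1.19, -1.19 and -0.97, so that the sets did not overlap. Its fitted mean was -0.72 (SD of its values 0.88) and did not pass (adjusted p = 0.052), but it passed as lower without hour 3 (-0.94, adjusted p = 0.011) and with even hours alone (-1.18, adjusted p = 0.0035). It also passed with the split as a covariate (-0.51, adjusted p = 0.040). On the deposited scale VPS30 was at -0.40 and did not pass (adjusted p = 0.22), nor did it without hour 4 (-0.57, adjusted p = 0.14). ATG14, which marks the autophagy complex and is no VPS member by name, was below 0 on 10 of 10 arrays, at -1.53 ± 0.83 (adjusted p = 0.00021).

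Of 4 genes for proteins that prepare membranes for fission and fusion at the endosome, 1 passed, against 45% of all genes tested in either direction. VPS1, a dynamin-like GTPase, was above 0 on 10 of 10 arrays, from 0.48 at hour 4 through a median of 0.87 to 1.53 at hour 8. Its mean was 0.90 ± 0.29 (adjusted p = 0.00015), a 1.87-fold difference, with 0.92 over odd and 0.88 over even hours. VPS21, a Rab5-type GTPase, was at 0.82 ± 1.06 and did not pass (adjusted p = 0.058), but passed without hour 1 (0.99, adjusted p = 0.034) and without hour 3 (0.95, adjusted p = 0.046). It also passed as higher, at 0.82, with the split as a covariate (adjusted p = 0.029). Without any 1 of the hours other than 1 and 3 VPS21 did not pass, with an adjusted p of up to 0.13. Its exchange factor VPS9 was at 0.27 ± 0.57 (adjusted p = 0.25), and the endosomal SM protein VPS45 at -0.24 ± 0.42 (adjusted p = 0.15).

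VPS68 was the lowest VPS gene. Its values at hours 1 and 2 were -0.86 and -0.94, and those of hours 3 to 10 were -1.52, -1.91, -1.76, -1.91, -1.65, -2.10, -1.74 and -1.71. Every hour lay below 0, and hours 1 and 2 were the closest to it. The mean was -1.61 ± 0.41 (adjusted p = 1.3e-06), a 3.05-fold difference. VPS55, whose product forms an endosomal complex with Vps68, ran from -1.0 at hour 8 through a median of -0.64 to 0.06 at hour 3 and was lower as well, at -0.51 ± 0.38 (adjusted p = 0.0036), but not on the deposited scale (-0.21, adjusted p = 0.14). The difference between both genes was not tested.

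VPS13, a lipid transfer protein of membrane contact sites, was the smallest of the higher calls, with values from -0.10 to 0.88 and a mean of 0.33 ± 0.28 (adjusted p = 0.040). It did not pass without any 1 of hours 1, 2, 3, 4, 5, 7, 8 or 9, with adjusted p-values from 0.056 to 0.087. VPS74, which holds glycosyltransferases in the Golgi, was at 0.27 ± 0.44 (adjusted p = 0.10) and passed as higher without hour 8 (0.38, adjusted p = 0.019).

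Some VPS genes act outside membrane traffic. VPS71 and VPS72 encode subunits of the SWR1 complex, which places the histone variant H2A.Z, and VPS75 a histone chaperone. None of these passed for the mean, with VPS72 at 0.49 ± 1.09 (adjusted p = 0.26), VPS71 at -0.24 ± 0.77 (adjusted p = 0.47) and VPS75 at a fitted -0.29 (SD of its values 0.43; n = 9; adjusted p = 0.15). The frame of VPS75 overlaps that of CWC25, which had 6 values with a mean of -0.81 ± 0.40 and was not tested. Nor was the part of this overlap in the VPS75 values tested. The odd hours 1, 3, 5, 7 and 9 of VPS72 gave -0.72, -1.13, -0.52, -0.06 and 0.45, and its even hours gave 1.17, 2.29, 1.65, 0.96 and 0.78. The odd hours of VPS71 gave 0.11, 0.93, 1.13, -0.46 and 0.02, and its even hours gave -1.09, -0.85, -0.94, -0.72 and -0.49. Odd hours were thus all below even hours for VPS72 and all above them for VPS71, though both proteins belong to 1 complex.

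Of the 6 members outside these classes, 5 of them tested, VPS64, VPS63 and VPS70 passed, against 45% of all genes tested in either direction. VPS64, a member of the Far complex known from pheromone arrest, was at 2.32, 1.27, 0.73, 1.58 and 0.27 in odd hours and at 0.76, 0.23, 0.72 and 1.66 in hours 2, 6, 8 and 10, above 0 on all 9 arrays that measured it. Its fitted mean was 1.04 (SD of its values 0.70; adjusted p = 0.0024), a 2.05-fold difference. VPS63 was at 1.40, -0.74, 1.15, 0.26 and 2.58 in odd hours and at 1.64, 0.43, 1.30, 0.98 and 0.64 in even hours, with hour 3 alone below 0 and a mean of 0.96 ± 0.89 (adjusted p = 0.015). Its frame overlaps that of YPT6, a Rab GTPase of the Golgi, which was at 0.10 ± 0.99 (n = 10; adjusted p = 0.81). YPT6 averaged 0.90 over odd and -0.71 over even hours, and VPS63 averaged 0.93 and 1.00. Since the strand of the array's probes is not stated, the part of each frame in the signal of the other cannot be told. VPS70 was at -1.39, 0.21, -0.85, -0.79 and -1.11 in odd hours and at -1.68, -0.72, -0.61, -0.43 and -0.93 in even hours, with hour 3 alone above 0 and a mean of -0.83 ± 0.52 (adjusted p = 0.0018). VPS73 and VPS62 were at 0.20 ± 0.62 and -0.20 ± 0.40 and did not pass (adjusted p-values of 0.41 and 0.26), and VPS501, with 7 values between -1.19 and 0.65, was not tested.

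**Figure D3:**
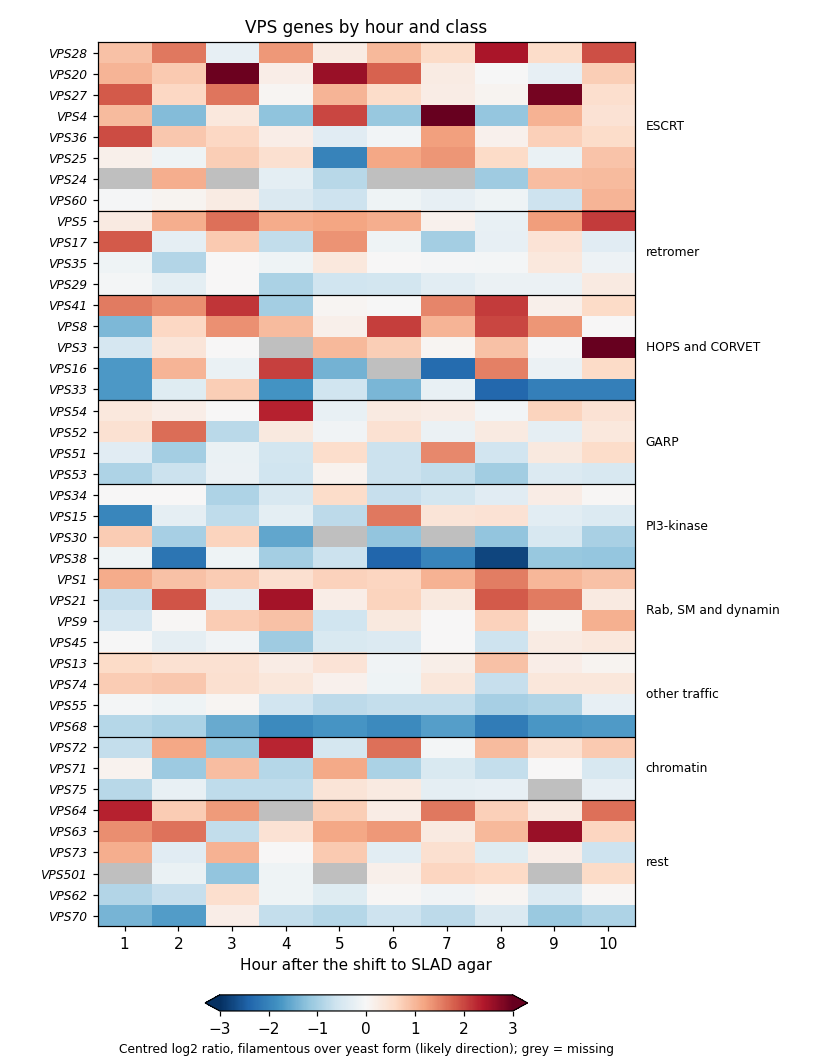
Centred log2 ratio of the 42 VPS genes (rows, by class and then by mean) at hours 1 to 10 (columns), with red above 0, blue below 0 and grey for missing values. The colour scale ends at 3 in either direction. The row of VPS68 is blue and that of VPS1 red at every hour, and the row of VPS16 is blue in every odd hour and red in every even hour that was measured.

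No VPS gene passed for a linear change over the 10 hours, and 0% of all 5775 genes did in limma. At an unadjusted p under 0.05, 2 of the 40 VPS genes had a linear change, against 11.1% of all genes. They were VPS68, with a slope of -0.093 ± 0.034 per hour (SE; adjusted p = 0.39), and VPS3, with 0.226 ± 0.10 per hour (SE; adjusted p = 0.45), whose highest value is that of hour 10. Slopes were above 0 for 23 genes and below 0 for 17. The median of the VPS genes stayed between -0.13 at hour 4 and 0.32 at hour 10, and their SD within an hour lay between 0.91 and 1.38, highest at hour 7, which holds the VPS4 value of 6.73.

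Some VPS genes, such as VPS16 and VPS4, had a larger difference between the means of odd and even hours than between the mean over all hours and 0. The size of the difference between the odd and the even mean had a median of 0.55 over VPS genes and of 0.38 over all genes tested, and it reached 1 for 30% of VPS genes and 16.2% of all genes. The SD over hours was larger in VPS genes too, with a median of 0.71, against 0.62 over all genes tested. The part of this wider spread in the odd and even differences was not tested. Odd and even hours did not overlap for 6 of the 40 VPS genes, or 15%, against 8.57% of all genes tested. Odd hours lay above even hours for 3 of these (VPS30, VPS71 and VPS73), against 5.4% of all genes, and below even hours for the other 3 (VPS16, VPS28 and VPS72), against 3.17% of all genes. The split was noticed in these data and is no label, so these counts are a description with no test.

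VPS73 was at 1.08, 1.05, 0.79, 0.49 and 0.19 in odd hours 1, 3, 5, 7 and 9 and at -0.35, 0.02, -0.32, -0.36 and -0.61 in even hours. VPS28 averaged 0.40 in odd hours and 1.65 in even hours. Of the 40 tested VPS genes, 13 had odd and even means of opposite sign. The share of all genes with such means was not counted, so this count cannot be read as particular to the VPS genes. With odd hours alone 5 of the 39 VPS genes fitted passed as higher and 2 as lower, against 15.4% and 17.1% of all genes fitted. With even hours alone 10 of the 42 fitted passed as higher and 8 as lower, against 20.7% and 23.5%. In both fits VPS1 passed as higher, and VPS38 and VPS68 as lower. Of the 16 VPS genes called over all hours, 11 did not pass with odd hours alone (VPS5, VPS8, VPS13, VPS20, VPS28, VPS33, VPS36, VPS53, VPS55, VPS63 and VPS70) and 6 did not with even hours alone (VPS13, VPS20, VPS27, VPS36, VPS55 and VPS64). Each of these fits holds 5 arrays.

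**Figure D4:**
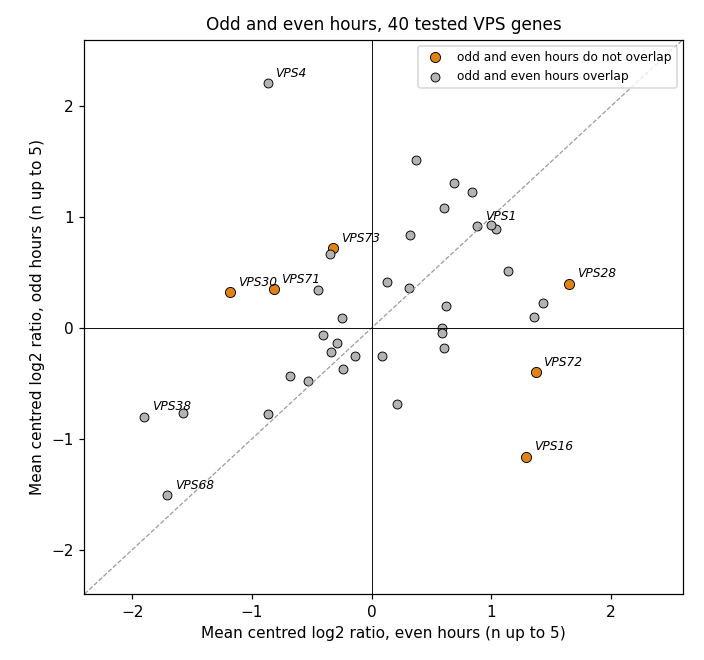
Mean centred log2 ratio of odd hours (y axis) against that of even hours (x axis) for the 40 tested VPS genes, with equal values on the dashed line. Orange points mark the 6 genes whose odd and even hours do not overlap. VPS4 lies farthest above the line (2.21 against -0.87) and VPS16 farthest below it (-1.16 against 1.29).

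Many proteins of the same complexes, and others of the route such as SNAREs, Rab GTPases, lipid enzymes, cargo receptors and adaptors, carry other gene names. A list of 53 such partners, 49 of them tested, was set beside the VPS genes. In limma 10 of these passed as higher and 8 as lower, which is 20.4% and 16.3%, against 22.6% and 22.4% of all genes, and their median was 0.10, against 0.08 over all genes. Both shares lay below the background. Of the 18 calls, 12 held without any single hour, the exceptions being those of SNF8, IST1, RFU1, PEP8, RIC1 and TLG1, whose highest adjusted p without 1 hour lay between 0.056 and 0.10. Among ESCRT partners 3 of 11 were higher and 1 lower. The higher ones were IST1, an ESCRT-III regulator, at 1.28 ± 1.30, SNF8, of ESCRT-II, at 0.86 ± 0.90, and MVB12, of ESCRT-I, at 0.72 ± 0.24, and the lower one was RFU1, an inhibitor of the ubiquitin protease Doa4, at -0.34 ± 0.36. STP22, the ESCRT-I partner of Vps28, was at 0.05 ± 0.49 (adjusted p = 0.79), and SNF7, the main subunit of ESCRT-III, at 0.09 ± 0.54 (adjusted p = 0.72).

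Of all genes tested 22.6% were higher, 22.4% lower and 45% either, and the class counts below were not tested against these shares. In retromer and among sorting nexins 2 of 3 tested partners were higher, MVP1 at 1.37 ± 0.77 and PEP8, the retromer subunit also called Vps26, at 0.68 ± 0.81. PEP8 was at 2.88 at hour 2 and at 0.03 to 0.73 in the other hours, and without hour 2 its mean was 0.44 (adjusted p = 0.018). In vacuole fusion 6 of 9 partners did not pass. PEP3, of the HOPS and CORVET core, was higher at a fitted 1.02 (SD of its values 0.86; n = 9) and YPT7, the Rab7-type GTPase of the vacuole, at 0.69 ± 0.54, while the vacuolar SNARE VAM3 was lower at -1.29 ± 0.75. At the endosome 5 of 7 partners did not pass, and the SNARE PEP12 and the Rab5-type GTPase YPT53 were lower, at -0.80 ± 0.81 and -1.39 ± 1.09. Of 5 phosphoinositide genes 2 did not pass. VAC7, an activator of the lipid kinase Fab1, was higher at 0.91 ± 0.77, and the lipid phosphatase FIG4 was lower at -0.67 ± 0.52, as was ATG14.

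Of 10 tested cargo receptors and adaptors 8 did not pass, while 45% of all genes tested passed in either direction. PEP1, the receptor also called Vps10 that carries carboxypeptidase Y, was lower at -0.51 ± 0.35 (adjusted p = 0.0051), though not on the deposited scale (-0.22, adjusted p = 0.15), and APS3, of the AP-3 adaptor, higher at 0.86 ± 0.69. Of 4 GARP partners 2 did not pass, while the SNARE TLG1 was higher at 0.73 ± 0.80 and RIC1, of the exchange factor for Ypt6, lower at -0.44 ± 0.40. On the deposited scale RIC1 and RFU1 did not pass (-0.14 and -0.05, adjusted p-values of 0.43 and 0.73). Both the HOPS and CORVET core and ESCRT-I therefore held subunits on different sides of 0 or of the threshold, such as PEP3 and VPS33, or VPS28 and STP22. The differences between such subunits were not tested.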

How the data were processed

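Per the labels, filamentous-form RNA (channel 1) and yeast-form RNA (channel 2) were hybridised together on each of 10 arrays. For every open reading frame the authors deposited a log2 ratio from each array. The sources used here name no scanner, dyes, background correction, normalization or array design, and spot intensities were not used, so signal over background is unknown. The values themselves settle the log base: 98.5% were whole ten-thousandths as powers of 2 (tolerance 0.02), against 4.59% as powers of e. Direction and any centring by the authors are not stated, and the array medians were 0.123 to 0.389.

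All 62920 values in the table have 7 decimals and a last digit of 3, and 3324 (5.28%) read 0.0000003. No other value was under 0.002 in size. These were taken as zeros and as missing, since a test for exact zeros finds none in this file. The last digit changes other values too little to matter here, and its origin is not known. Systematic names were matched to the RefSeq R64 gene table (5792 of 6292 matched), used for names and overlaps only.

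Arrays were centred on their medians, with 5802 to 6063 values used per array. With limma 3.58.1 in R 4.3.3, a mean, a slope and a curvature in hour (orthogonal terms) were fitted to all 5775 genes with at least 8 values. Mean and slope were tested, two-sided, with Benjamini-Hochberg adjustment over all genes and a threshold of 0.05. Where values are missing the fitted mean can differ from the plain mean. The yeast-form RNA counts as 1 control, though the sources do not say whether all arrays shared a single extract. If they did, its own spread is left out of the error, and dye bias is left out in any case. Alternatives covered scaling, zeros, filters, time model, odd or even hours, single hours, weights and thresholds. The code was tested on simulated data. Members, lists and the odd and even split were chosen with earlier results of these data known. By rule, values by hour were given to the 5 highest and 5 lowest called members and to the members with the most extreme odd minus even difference in each direction, and partners that passed were named. Those of members whose odd and even hours do not overlap were added after seeing them. The other called members are given by range. Sequences and promoter motifs were not analysed here. Figures were drawn with matplotlib 3.10.9.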

Additional observations from a re-analysis of the deposited data

Results flagged for a closer look

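In 7 VPS genes 1 hour stood far from the others, with a gap to the nearest hour that took a larger share of the gene's range than Dixon's critical value allows. Chance flags about 1 in 20 groups, and 42 genes were examined, so a few such flags arise by chance. The share of all genes flagged in this way was not counted, so the flags cannot be read as particular to the VPS genes. VPS4 was at 6.73 at hour 7, and the next highest hour was 2.00. VPS3 was at 3.49 at hour 10, the next at 0.98, and VPS54 was at 2.31 at hour 4, the next at 0.67. VPS52 was at 1.68 at hour 2, the next at 0.45, and VPS60 was at 1.02 at hour 10, the next at 0.24. Of the low values, VPS25 was at -2.0 at hour 5, the next at -0.21, and VPS35 was at -0.87 at hour 2, the next at -0.16. Without that hour the plain mean of VPS3 was 0.31 in place of 0.66, that of VPS54 0.20 in place of 0.41, that of VPS52 0.05 in place of 0.21, and that of VPS60 -0.21 in place of -0.08.

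VPS16 had every odd hour below 0 and every even hour above 0, with an odd minus even difference of -2.45. This difference was not tested. Of all 5775 genes tested, 2.79% had odd hours on one side of 0 and even hours on the other.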

How the results depend on the processing

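Leaving out each hour in turn left 9 to 10 VPS genes higher, 6 to 8 lower, and their median at 0.12 to 0.22. On the deposited scale 17 were higher, and the median of the means was 0.50. With odd hours alone 5 were higher and 2 lower, and the median was 0.10. At an adjusted p under 0.01 there were 4 higher and 6 lower genes, and with a size of at least 2-fold 2 higher and 3 lower. The shares of all genes were not counted at an adjusted p under 0.01 or in the fits without 1 hour. In the other settings run both counts stayed within 1.5 times the reported ones, and no setting called a linear change for a VPS gene. Of the 16 called genes, VPS1, VPS38 and VPS68 kept their call in every refit, and 13 kept it without any single hour, the exceptions being VPS13, VPS20 and VPS36. With even hours alone VPS4 passed as lower at -0.87 and VPS16 as higher at 1.29, on the other side of 0 from their means over all hours. The cause was not tested. The odd and even fits hold fewer arrays. With 10 arrays and no replicate hour, changes at a single hour cannot be told apart from array error.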
